A study of Drosophila melanogaster with 3 samples.

Results

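The 10 genes described here are the gap genes hb, Kr, kni and gt and the pair-rule genes eve, ftz, run, odd, prd and hry of Drosophila melanogaster, taken by gene name from the Ensembl annotation of BDGP6 out of 13945 protein-coding genes on the 6 chromosome arms 2L, 2R, 3L, 3R, 4 and X. Each was described by the ChIP-seq summits that lay from 10 kb before to 10 kb after it. The data map the zinc finger protein CG2678 (kipferl), carried as a C-terminal GFP fusion by a stable transgenic line and precipitated with an anti-GFP antibody from whole embryos of both sexes, 0 to 24 h old, in 3 biological replicates of 1 group. The labels do not give the promoter that drives the fusion, or whether the endogenous protein was present. Each replicate had a list of 30000 peaks, the replicates together had a pooled list of 30000, and the 9459 pooled peaks of highest signal had passed a threshold on the irreproducible discovery rate (IDR). Read depth is unknown, because the lists hold no counts.

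Gap genes encode transcription factors that read the maternal gradients of the early embryo and are expressed in broad bands. Pair-rule genes are then switched on in stripes, by gap proteins and by each other, and set the borders of the segments. Many of these genes are surrounded by separate enhancers, upstream, downstream and in introns, each driving one part of the pattern. Their blastoderm patterns are made and fade early in development, and several of them are expressed again later, for example in the nervous system. A collection of 0 to 24 h therefore holds mostly embryos in which the first patterns are over, and stages cannot be told apart in these data.

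The segmentation genes held few peaks, and nearly all of them lay at hry and odd. An IDR summit was present in the windows of hry and odd and in none of the other 8, so 2 of 10 members had one, against 68.8% of all protein-coding genes (9600 of 13945). Only hry had an IDR summit at its promoter, taken as 500 bp to either side of an annotated transcription start site (TSS), 1 of 10 against 22.5% of protein-coding genes. For 10 genes this promoter count is near the general share and, unlike the window count, does not set the members apart. The windows held 7 IDR summits in all, 5 at hry and 2 at odd, with ranks by signal from 3562 to 8308 among the 9459. With windows of 20 kb the count was 6 members (hb, kni, eve, prd, odd and hry), against 84.9% of protein-coding genes. In the pooled list the windows held 33 summits, 22 at hry, 10 at odd and 1 at hb, and 3 of 10 members had any, against 77.2% of protein-coding genes. Again only hry had one at its promoter, against 34.1% of protein-coding genes. With every list counted, summits of at least 1 list were found at 8 members, against 91% of protein-coding genes, and gt and ftz had none in any of the 5 lists.

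**Figure D1:**
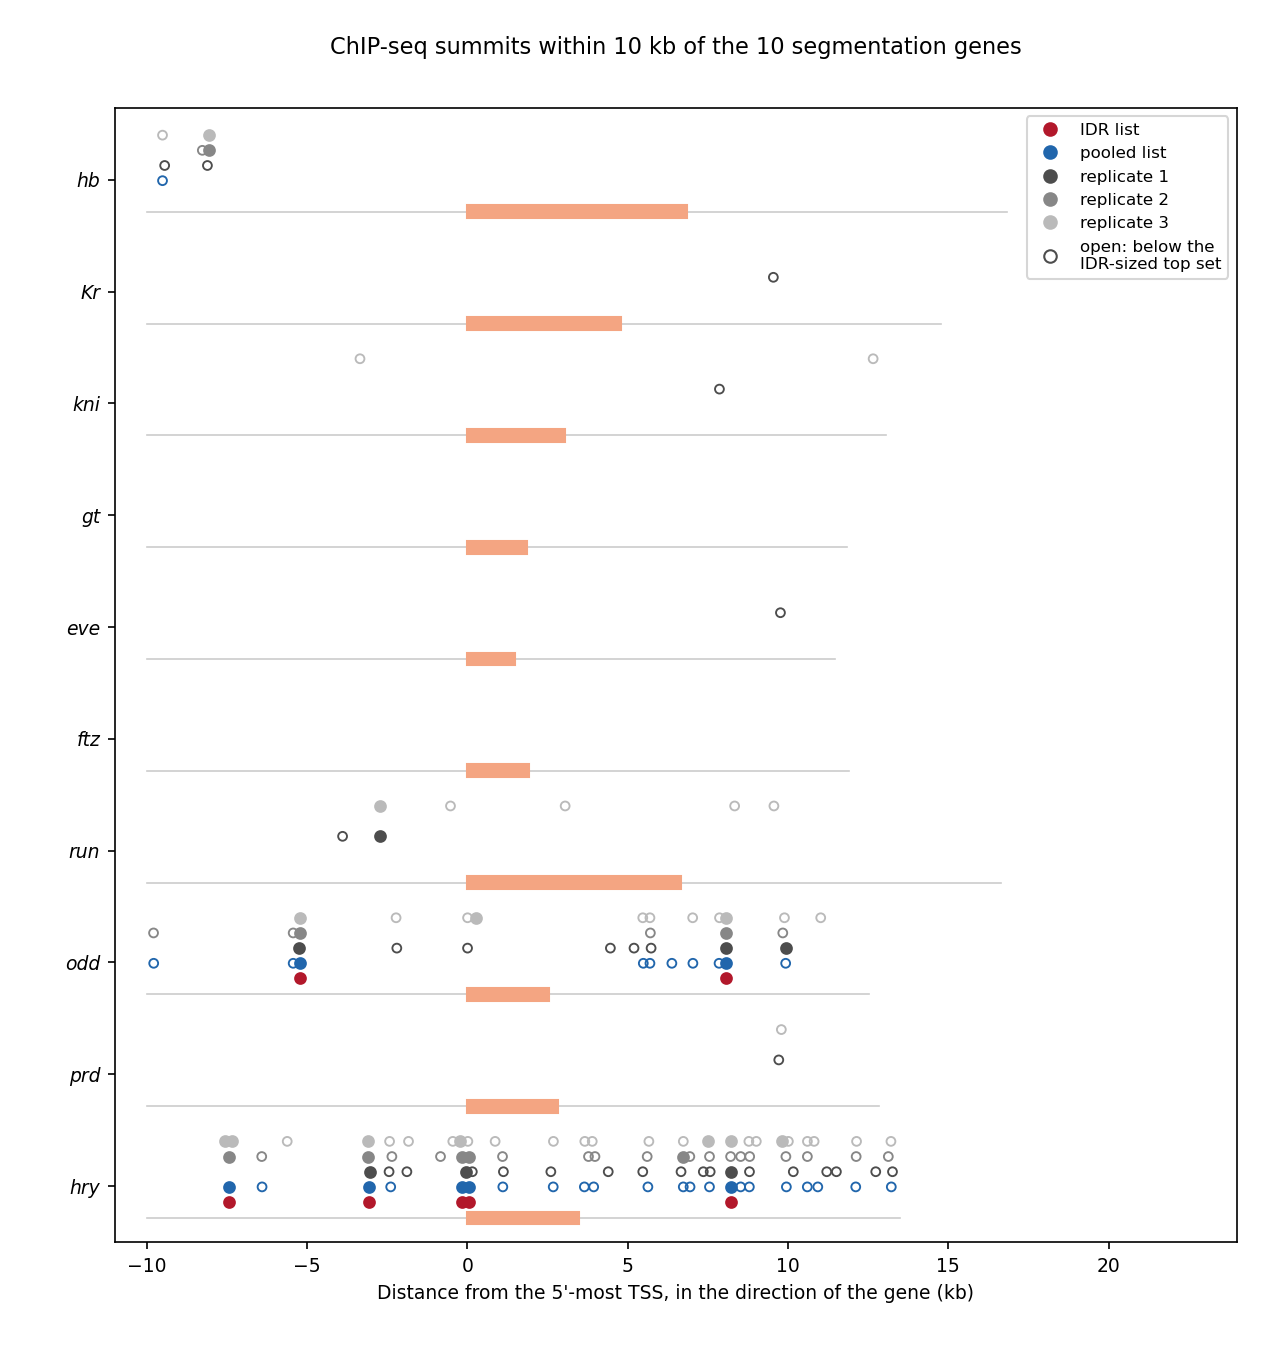
Positions of all summits in the windows of the 10 genes, by distance in kb from the most 5' TSS along the direction of each gene, with the gene as a bar and 1 lane for each of the 5 lists. Filled points are among the 9459 strongest peaks of their list; hry has 5 red points of the IDR list and odd has 2, and the other 8 genes have none.

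Among the gap genes, hb, which encodes a zinc finger protein of the anterior embryo, was the only one with a strong peak in any replicate, taken here as one among the 9459 of highest signal. The gene lies on 3R at 8690980 to 8697822, on the minus strand. A summit about 8 kb upstream of its nearest TSS was present in all replicates. It stood at 8705931 in replicate 1 (rank 11521 of 30000), at 8705890 in replicate 2 (rank 8489) and at 8705896 in replicate 3 (rank 6451), intergenic and 8109, 8068 and 8074 bp upstream of hb. The TSS nearest to it was that of CG8112, about 7 kb away, and not that of hb. Although it was in all replicates, the pooled list had no summit within 100 bp of it, and the nearest was 1436 bp from the summit of replicate 3. The only pooled summit in the hb window lay 9510 bp upstream, at rank 27956, near the bottom of that list.

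The other gap genes had at most weak summits. Kr, a zinc finger gene of the central embryo (2R, 25226611 to 25231394), had 1 summit in replicate 1 only, at rank 26682, in an intron of CG9380. kni, which encodes a zinc finger protein of the nuclear receptor superfamily (3L, 20692330 to 20695378), had 1 in replicate 1 (rank 22546) and 2 in replicate 3 (ranks 17493 and 18751), at different positions, and none in replicate 2. gt, a bZIP gene (X, 2427113 to 2428967), had none. The nearest IDR summit was 14.3 kb from the most 5' TSS of hb, 15.3 kb from that of kni, 32.3 kb from that of gt and 37.6 kb from that of Kr.

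Of the pair-rule genes, eve, ftz, run and prd had no pooled summit in their windows. ftz, a homeobox gene within the Antennapedia complex (3R, 6864324 to 6866244), lay 39.1 kb from the nearest IDR summit, the largest distance among the 10. eve, a homeobox gene (2R, 9979319 to 9980795), had 1 summit, in replicate 1 at rank 11586, which lay 9766 bp downstream of its TSS and 74 bp upstream of that of its neighbour TER94, an ATPase gene. prd, which encodes a paired-domain and homeodomain protein (2L, 12082995 to 12085827), had 1 summit in replicate 1 and 1 in replicate 3, at ranks 13497 and 12672, both within 100 bp of the TSS of CG14947. The IDR summits nearest to eve and prd had high ranks but stood several kb beyond the windows. The nearest IDR summit to eve was 19.4 kb upstream and ranked 20 of 9459, and that to prd was 17.7 kb upstream and ranked 889.

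At run, which encodes a Runt-domain transcription factor (X, 20690670 to 20697321), the replicates differed. The window held 2 summits in replicate 1, none in replicate 2 and 5 in replicate 3. A narrow intergenic peak about 2.7 kb upstream of run was among the strongest of replicate 1 (summit 20687930, rank 5958) and of replicate 3 (summit 20687933, rank 5104). Replicate 2 and the pooled list had no summit within 100 bp of it, and the nearest pooled summit was more than 25 kb away (25815 bp). The TSS nearest to this peak was that of lncRNA:CR43862, 1111 and 1114 bp away in replicates 1 and 3, and not that of run. The other 5 summits of this window had ranks from 17587 to 28705.

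Because the strong peaks at hb and run are in replicate lists only, their bases are shown, 50 bp to either side of the summit of replicate 3 (dm6, plus strand, with capitals on the word TATAAA at hb and on the word TTTATG at run, in either orientation).
hb, chr3R:8705846-8705946: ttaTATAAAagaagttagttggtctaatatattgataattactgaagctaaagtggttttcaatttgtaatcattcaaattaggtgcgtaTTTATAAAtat
run, chrX:20687883-20687983: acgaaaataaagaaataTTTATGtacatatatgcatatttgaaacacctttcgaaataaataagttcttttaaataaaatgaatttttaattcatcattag
Both are rich in A and T, with a GC content of 22.8% and 18.8%, against a median of 30.7% over the same length at all IDR summits. The flanking windows, centred 300 bp away, had 45.0% at hb and 49.0% at run. Within 50 bp of all IDR summits, TATAAA was present at 25.1% and TTTATG at 14.7%, and no function of the marked words was tested.

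odd encodes a zinc finger repressor and lies on the minus strand of 2L, at 3604224 to 3606756. Its 2 IDR summits were on either side of the gene, both intergenic. The stronger, at 3598696, lay 8060 bp downstream of the TSS, beyond the end of the gene, and ranked 5623 in the IDR list and 5298, 6652 and 5528 in replicates 1, 2 and 3. The other, at 3611989, lay 5233 bp upstream and ranked 7293, and 8089, 7698 and 8252 in the replicates. The replicate summits were within 12 bp of the IDR summit in each case. Of the 7 IDR summits these had the most even ranks over the replicates, and both were matched in all of them.

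The other 8 pooled summits at odd ranked from 9594 to 29622. The highest of them, at 3596827, was among the strongest peaks of replicate 1 (rank 7485) but ranked 13507 and 10491 in replicates 2 and 3. The gene start itself had no pooled summit. In replicate 3 there were summits 6 bp (rank 10635) and 267 bp (rank 9328) downstream of the TSS, replicate 1 had one 5 bp downstream at rank 25028, and replicate 2 had none within 500 bp.

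The bases at the 2 odd summits are shown because they differ in composition from the peaks at hb and run (dm6, plus strand, 50 bp to either side of the summit, with capitals on the A run, which reads on the other strand).
odd downstream, chr2L:3598646-3598746: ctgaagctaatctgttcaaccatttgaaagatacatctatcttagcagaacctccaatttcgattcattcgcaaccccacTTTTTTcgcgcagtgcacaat
odd upstream, chr2L:3611939-3612039: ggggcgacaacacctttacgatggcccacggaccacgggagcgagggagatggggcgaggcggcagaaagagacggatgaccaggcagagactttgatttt
Their GC content was 40.6% and 60.4%. The second was higher than its flanks, at 53.5%, and was the highest of the 7 IDR summits. The first was lower than its flanks, at 47.5%.

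hry, also called hairy, encodes a basic helix-loop-helix repressor and lies on the plus strand of 3L, at 8675759 to 8679253, with annotated TSSs at 8675759 and 8675955. It was the one member with pooled summits upstream, inside and downstream of the gene. The pooled list held 22 summits there, 5 upstream of the gene, 3 inside it and 14 downstream, and the replicates held 19, 21 and 25 (21.7 ± 3.06, SD, n = 3). As many pooled summits as this were found at 3.13% of protein-coding genes (437 of 13945), whereas the 10 at odd were reached by 22.8%. Among IDR summits the 5 at hry were reached by 16.5%. No other gene starts inside the hry window or overlaps it.

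The IDR summits of hry were 2 at the promoter and 3 at a distance, and the distal upstream ones were stronger. The first in rank, 3058 bp upstream at 8672701, had rank 3562 in the IDR list and 5608, 4557 and 2306 in replicates 1, 2 and 3. The next, 7450 bp upstream at 8668309, ranked 4640, and 4187 and 5880 in replicates 2 and 3, whereas replicate 1 had no summit within 100 bp. Replicate 3 had 2 summits around it, at 8668212, which is 97 bp away, and at 8668413. Of the promoter summits, the one 155 bp upstream of the TSS ranked 5701 and the one 45 bp downstream ranked 8308. Both belong to 1 interval of 694 bp. Replicate 2 had 2 summits there, at ranks 4798 and 7906, replicate 3 had ranks 8256 and 14228, and replicate 1 had one midway, 100 bp from each, at rank 5149. Replicate 1 had another summit in the interval, at 8675913 (rank 9925), 42 bp upstream of the second TSS. The last, beyond the end of the gene at 8683970 and 8015 bp downstream of the nearer TSS, ranked 8272, and 6185, 11003 and 8967 in the replicates.

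The 4 hry summits outside UTRs are shown in order of position, since the strong distal pair and the promoter differ in base content (dm6, plus strand, 50 bp to either side of the summit, with capitals on TATAAA in the first and on CAGGTA in the promoter).
hry, 7450 bp upstream, chr3L:8668259-8668359: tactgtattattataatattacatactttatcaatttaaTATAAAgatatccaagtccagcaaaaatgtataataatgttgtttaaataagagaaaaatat
hry, 3058 bp upstream, chr3L:8672651-8672751: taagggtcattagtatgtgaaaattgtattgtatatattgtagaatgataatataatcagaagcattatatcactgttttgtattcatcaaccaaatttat
hry promoter, chr3L:8675554-8675654: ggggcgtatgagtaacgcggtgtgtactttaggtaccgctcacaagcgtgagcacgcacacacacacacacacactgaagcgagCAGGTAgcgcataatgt
hry downstream, chr3L:8683920-8684020: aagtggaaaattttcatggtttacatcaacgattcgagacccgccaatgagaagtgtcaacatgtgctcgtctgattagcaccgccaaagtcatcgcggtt
The distal upstream summits had a GC content of 17.8% and 23.8%, against 48.5% and 51.0% in their flanks. Around the first, the GC content was 21.8% at the summit of replicate 2, but 41.6% and 43.6% at the 2 summits of replicate 3. At the promoter summit it was 54.5%, against 52.0% in the flanks, and at the downstream summit 45.5%, against 33.2%. So the AT-rich dip that marks most IDR summits was present at the distal upstream IDR summits, which had the best ranks. It was not present at the other IDR summits of hry.

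**Figure D2:**
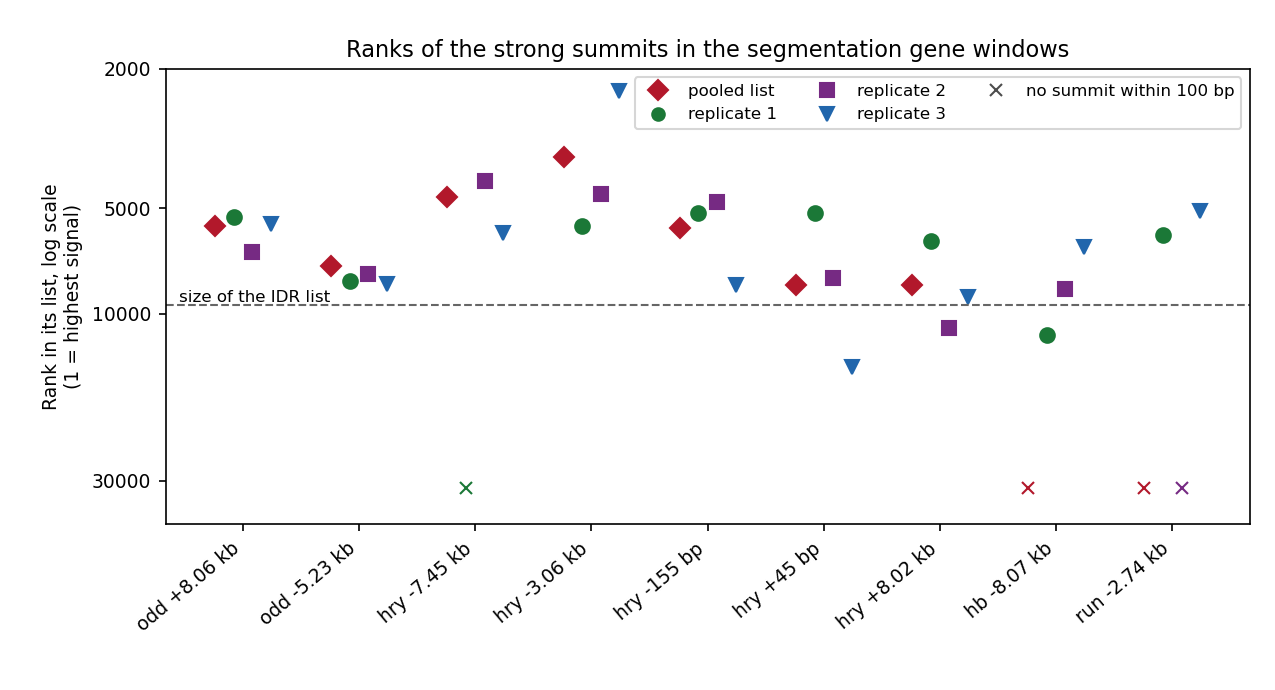
Rank by signal (log scale, strongest at the top) of each of the 7 IDR summits at odd and hry, and of the replicate-only summits at hb and run, in the pooled list and in each replicate; labels give the distance from the nearest TSS of the gene, and crosses mark lists with no summit within 100 bp. The odd summits have like ranks in all lists, and the hb and run summits have none in the pooled list; the summit of replicate 1 at rank 5149 is drawn at both promoter summits of hry.

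The replicates gave the same 2 genes and added hb and run. A match was a summit within 100 bp among the 9459 strongest peaks of a replicate. Of the 7 IDR summits 4 were matched in all replicates, or 57.1%, against 62.0% of all IDR summits, which were called on these same replicates pooled. Of these 4, the hry promoter summit 155 bp upstream was matched in replicate 1 only at the limit of 100 bp. With a limit of 50 bp, 3 were matched in all replicates. Among the 9459 strongest peaks the windows of the 10 genes held 7, 8 and 12 summits in the replicates, in order (9.0 ± 2.65, SD, n = 3). By this count 3 of 10 members had a summit in replicate 1 (run, odd and hry), against 75.6% of protein-coding genes. It was 3 in replicate 2 (hb, odd and hry), against 70.2%, and 4 in replicate 3 (hb, run, odd and hry), against 70.5%. In each replicate the members' share was lower than that of all genes, and kni, Kr, gt, eve, ftz and prd had no such summit in any replicate. In the full replicate lists the windows held 35, 29 and 46 summits (36.7 ± 8.62, SD, n = 3).

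**Figure D3:**
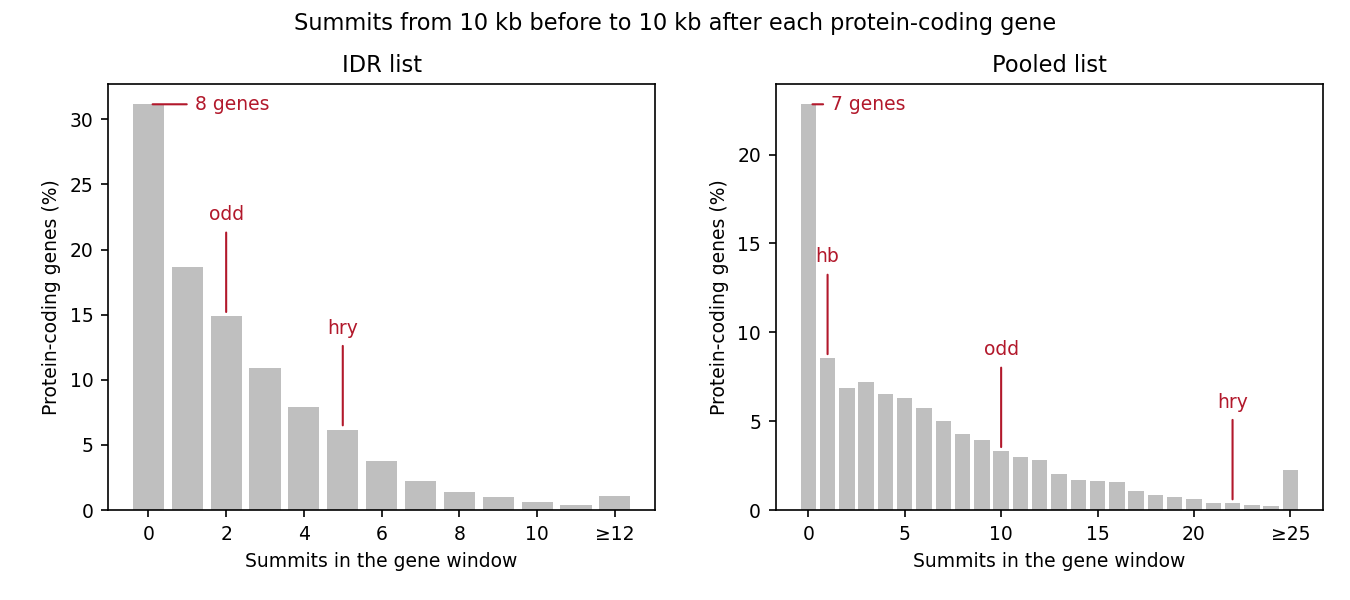
Share of the 13945 protein-coding genes (%) by the number of summits from 10 kb before to 10 kb after the gene, in the IDR list (left) and the pooled list (right), with the last bar holding all higher counts. The 8 members with no IDR summit fall in the bar that holds 31.2% of genes, and hry lies in the thin upper part of the pooled distribution.

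The surroundings of the members differed from those of most genes, although their windows were of common length. The windows spanned 21477 to 26843 bp (median 22941, against 22166 for all protein-coding genes). Among the 11297 genes no longer than hb, the longest member, 65.9% had an IDR summit and 74.9% a pooled summit in the window. Few other genes start near the members. The number of other genes that start in the window had a median of 1, from 0 at hry, kni and Kr to 7 at prd, against a median of 6 for all protein-coding genes. Of the 2074 genes with at most 2 such neighbours, 52.6% had an IDR summit and 67.2% a pooled one, against 2 and 3 of the 8 members of that kind, which leave out eve and prd. Per 100 kb the 10 windows held 2.97 IDR summits, against 8.46 over the windows of all protein-coding genes. The density was 21.3 at hry, 8.88 at odd and 0 at the other members. In the pooled list the 10 windows held 14.0 per 100 kb, against 22.7 over all genes. The density was 93.6 at hry, 44.4 at odd and 0.528 at the other members, which are those left without the 2 genes that held nearly all summits. The median over single protein-coding genes was 4.86 for IDR summits and 17.5 for pooled summits, and that over the members was 0 for both. The part of gene spacing in the lower counts was not tested beyond these shares.

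The promoters of the segmentation genes were rich in G and C. In the 250 bp upstream of the most 5' TSS the GC content ran from 46.4% at hb to 67.2% at eve, with a median of 56.4%, whereas the median of all protein-coding genes was 37.2% (quartiles 32.0% and 44.0%). The window as a whole did not stand apart, with a median of 43.2% against 43.7%. At the 7 IDR summits of hry and odd the median GC content within 50 bp was 45.5%, from 17.8% to 60.4%. At all IDR summits it was 30.7%, and it was lower at the summit than in the flanks in 7562 of 9459 and in 3 of these 7. Of the 2637 protein-coding genes with an upstream GC content no lower than at hb, 17.5% had an IDR summit at the promoter, against 1 of the 10 members. The part of base content in the presence of peaks was not tested.

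**Figure D4:**
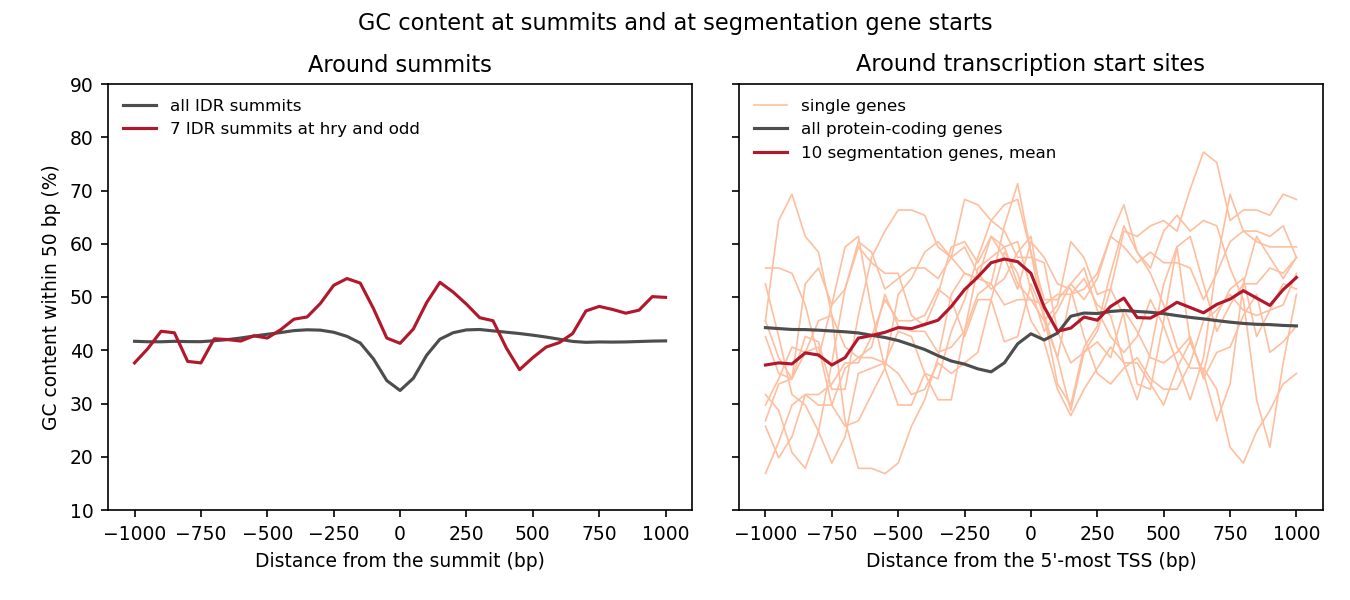
Mean GC content (%) of windows of 50 bp to either side by distance in bp from the summit (left: the 7 IDR summits at hry and odd, and all IDR summits) and from the most 5' TSS (right: each of the 10 genes, their mean, and all protein-coding genes). At 100 bp upstream of the TSS the mean is 57.1% for the 10 genes and 37.6% for all protein-coding genes, while all IDR summits average 32.4%.

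Some words known from early embryonic regulation were present upstream of most of these genes, with or without a peak. Each word was searched on both strands of the same 250 bp, and shares were not adjusted for base content. CAGGTA, a word bound by Zelda, the activator of the early zygotic genome, was present at 6 of the 10 genes (Kr, gt, ftz, odd, prd and hry), against 5.43% of protein-coding genes. GAGAG, bound by the GAGA factor, was present at 9, all but hry, against 25.7%. GGGG was present at 9, all but hb, against 40.2%. TATAAA, the TATA box, was found at 3 (Kr, eve and gt), against 43.0%, TTTATG, bound by Caudal, at ftz alone, against 25.01%, and AAAAAA at hb alone, against 45.6%. GGATTA, bound by Bicoid, was in none of the 10 upstream stretches of 250 bp, against 7.59%. Within 50 bp of the 7 IDR summits, CAGGTA was present at 1, the upstream promoter summit of hry, against 1.71% of all IDR summits. TATAAA was present at 1 (25.1% of all), GAGAG at 1 (8.77%), AAAAAA at 1 (27.8%), GGGG at 3 (15.6%), and the Bicoid and Caudal words at none (3.18% and 14.7%).

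The upstream sequence of hry, which has an IDR summit, is set beside those of ftz and gt, which have no summit in any list, because all hold CAGGTA and are rich in G and C (dm6, strand of the gene, with capitals on every match to the searched words above, in either orientation, other than the G run).
hry, chr3L:8675509-8675758: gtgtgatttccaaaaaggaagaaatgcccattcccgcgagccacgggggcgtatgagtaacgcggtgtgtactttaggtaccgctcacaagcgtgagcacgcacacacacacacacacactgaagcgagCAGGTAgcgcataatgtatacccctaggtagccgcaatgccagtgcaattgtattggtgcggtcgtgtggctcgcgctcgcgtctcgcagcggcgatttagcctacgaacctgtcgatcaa
ftz, chr3R:6864074-6864323: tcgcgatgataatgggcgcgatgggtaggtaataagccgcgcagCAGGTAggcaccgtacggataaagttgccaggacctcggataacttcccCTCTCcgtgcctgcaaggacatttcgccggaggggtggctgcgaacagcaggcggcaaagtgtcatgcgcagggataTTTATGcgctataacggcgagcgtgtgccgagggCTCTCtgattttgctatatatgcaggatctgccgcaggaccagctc
gt, chrX:2428968-2429217: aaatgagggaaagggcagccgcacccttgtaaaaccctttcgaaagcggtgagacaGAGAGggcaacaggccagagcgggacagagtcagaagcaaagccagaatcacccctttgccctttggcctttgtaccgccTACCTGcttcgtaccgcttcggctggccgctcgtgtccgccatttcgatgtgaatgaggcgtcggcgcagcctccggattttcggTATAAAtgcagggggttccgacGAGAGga
Their GC content was 55.2%, 57.2% and 57.6%. The base of CAGGTA, or of its reverse complement, nearest to the TSS lay 116 bp upstream of the TSS at hry, 201 bp at ftz and 109 bp at gt, and it also occurred at odd (137 bp), prd (86 bp) and Kr (178 bp). Of these 6 promoters only that of hry had an IDR or pooled summit, and the relation of the word to peaks was not tested.

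Genes before, beside and after these in the segmentation hierarchy were counted in the same way. They were taken as 4 lists of 32 genes in all: 8 maternal and terminal genes, 8 other gap and head gap genes, 6 other pair-rule genes with their neighbours and cofactor, and 10 segment polarity genes. An IDR summit lay in the window of 27 of the 32, where the share of all protein-coding genes was 68.8%, and at the promoter of 6, where it was 22.5%. They had a median of 2 IDR summits in the window, which is also the median of all protein-coding genes, against 0 for the 10 members. The difference between the members and these lists was not tested, and several of these genes, such as pum and ftz-f1, are much longer and so have longer windows. The 6 with a promoter summit were nos (nanos, the posterior determinant, best rank 5989), cad (a homeobox gene of the posterior embryo, 8003), pum (a translational repressor, 3410), cnc (a head gene encoding a bZIP protein, 1093), ptc (the Hedgehog receptor, 5284) and nkd (an inhibitor of Wingless signalling, 650). None of the 6 other pair-rule genes and neighbours had one, against 22.5% of protein-coding genes, which is not far apart for so few genes. Of these 6, 5 had an IDR summit in the window, against 68.8%. In the pooled list 3 of these 6 (sob, drm and ftz-f1) had a promoter summit. Over the 4 lists it was 12 of 32, against 34.1% of protein-coding genes.

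Some genes of these lists lie near a member or are related to one. sob and drm, which lie near odd and encode related zinc finger proteins, had 6 and 4 IDR summits in windows that do not overlap that of odd. Neither had an IDR summit at its promoter, but both had a pooled summit there. knrl, the paralog of kni, had 1 IDR summit, and ftz-f1, which encodes the nuclear receptor cofactor of ftz and is a long gene, had 18.

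Only hry had a promoter peak to set beside those of other genes. Among the 2202 other protein-coding genes with an IDR promoter summit matched in all replicates, the ones ranked most like hry (5149, 4798 and 8256 in replicates 1, 2 and 3) were CG5645 and Atg12, which share 1 set of ranks (4807, 4941 and 7784), and CG5850 (5414, 5197 and 7950). Likeness was the Euclidean distance in log10 rank over the 3 replicates, which was 0.0413 for CG5645 and Atg12 and 0.0441 for CG5850. This describes rank only, and the replicate 1 rank of hry is that of a summit 100 bp from the IDR summit.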

How the data were processed

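ChIP-seq of the GFP-tagged protein was deposited as 5 narrowPeak lists on dm6: 1 per replicate, 1 for the replicates pooled and 1 thresholded on IDR. Per the file headers in the deposited descriptions, each replicate list was derived from that replicate's alignments and 1 more file, from which the control-normalized signal was also derived; that file was not used. For aligner and peak caller, a name or version is not given in the sources used here. The authors' signal value ordered the peaks of each list and served for nothing else. The deposited summit offset was added to the peak start, and coordinates are 1-based. All 9459 IDR peaks are in the pooled list. Depth is unknown, so the spread over 3 replicates is the only error given.

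Genes came from Ensembl release 115 (BDGP 6.54), leaving out entries typed as transposable elements, and bases from RefSeq's copy of that assembly. The symbol nos was matched to nanos through RefSeq synonyms. Distances to a member are to its nearest TSS unless said otherwise. With 1 group of samples, no contrast was tested, and member counts are set beside the share of protein-coding genes. The members and lists were chosen with earlier results of these data known. By rule, all members and all IDR summits in their windows were named, with the strongest pooled summit outside the IDR list, the 3 genes ranked most like a member and the listed segmentation genes with a promoter summit; the others of these lists were named after their values were seen. Counting was tested on simulated lists. Python 3.11.15, numpy 2.4.6, pandas 2.3.3 and matplotlib 3.10.9 were used.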

Additional observations from a re-analysis of the deposited data

How the results depend on the processing

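The counts depend on the width of the window and on hry. With windows of 5 kb, 1 member had an IDR summit and the windows held 4, and 53.7% of protein-coding genes had one. With windows of 20 kb, 6 members had one (hb, kni, eve, prd, odd and hry), the windows held 23 summits at 5.28 per 100 kb, and 84.9% of protein-coding genes had one. Among the 4730 strongest IDR peaks, 1 member had a summit in its window, 0 had one at a promoter, and 2 summits were left. Without hry, an alternative chosen after seeing the data, 1 member had a summit in its window and 0 had one at a promoter, and 2 summits were left at 0.944 per 100 kb. The mean per replicate was 36.7 with all peaks and 1.0 with the 4730 strongest of each. The median GC content at the 7 summits was 49.0% within 25 bp and 50.7% within 100 bp. Leaving out each replicate gave 5 to 5 summits matched in both others, 1 to 1 promoter and 2 to 2 window counts, and replicate means of 7.5 to 10. Promoter counts were 1 at 250 and 1000 bp, with the most 5' TSS, the pooled list, the strongest summit of each interval and matched summits only. The last of these rests on a match at the limit of 100 bp. Summits matched in all replicates numbered 3 within 50 bp and 4 within 200 bp. No paired analysis was possible because there was 1 group of samples. The number of reads behind each peak is unknown, so a missing summit was not detected at these list lengths and is not shown to be absent.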

Other observations

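The summits at hb and run were strong in replicates but missing from the pooled list. Among strong peaks found in all 3 replicates, like that at hb, few were missing from it. Of the 7541 strongest peaks of replicate 3 that had a summit within 100 bp in the full lists of replicates 1 and 2, as at hb, 105 (1.39%) had no pooled summit within 100 bp. Of the 6667 strongest peaks shared by replicates 1 and 3, 299 (4.48%) had none. These were not limited to peaks missing from replicate 2, as the run peak was. The share among peaks like that at run was therefore not obtained.

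Neighbouring summits were never closer than 199 bp in any list, and many stood just past that spacing. In the pooled list 16.1% of neighbouring summits were under 250 bp apart, and so were 5 of the 30 neighbouring pairs in the segmentation gene windows, among them the promoter pair of hry, which is 200 bp apart. Whether such close summits are 1 site or several was not tested.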
